A study of Rattus norvegicus with 6 samples.

Results

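The genes described here are 10 genes of the endoplasmic reticulum (ER) and its stress response: the chaperone genes Hspa5, Hsp90b1 and Hyou1, the chaperone partner Sdf2l1, the disulfide isomerase genes Pdia4 and Pdia6, the stress-induced ER proteins Creld2 and Manf, the transcription factor gene Xbp1 and the degradation factor gene Herpud1. They were chosen by function, with earlier results of these data known, so that counts over them are descriptions and not tests. A probe was assigned to a gene where its accession matched a RefSeq transcript of that gene. By this rule 9 of the 10 had a probe, out of 12963 named genes measured in the series, and Manf is named only. The ICH group was 3 arrays of peripheral brain tissue from rats with intracerebral hemorrhage, in which blood escapes into the brain, and the sham group was 3 arrays of brain tissue from sham rats. The series title speaks of injury around the hematoma. Both groups are labelled with an age of day 1, whose starting point is not stated. The strain, the way the bleed was made and the region dissected in either group are not given in the sources used here. The series design text calls the ICH group transfected; no other label does. The same text calls them biological replicates.

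The ER is where secreted and membrane proteins fold. When unfolded proteins build up there, the chaperone BiP, the product of Hspa5, leaves the sensors IRE1, PERK and ATF6, and these start the unfolded protein response. IRE1 splices the Xbp1 messenger RNA into the form that encodes an active transcription factor, ATF6 is cut to release another, and PERK slows translation while it raises ATF4. The outcome is more chaperone, more disulfide isomerase and more capacity for ER-associated degradation (ERAD), and in brain the response is known from ischemia and hemorrhage.

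The promoters of these genes are shown because genes of this response can carry short elements through which it is read. The windows ran from 250 bases before to 50 bases after a transcript start of the RefSeq table of the rat build GRCr8. Of the 10 genes, 8 had a window; Pdia6 and Manf are named only. Both strands were searched for 3 motifs: the ER stress element ERSE (CCAAT and CCACG with any 9 bases between them), the related ERSE-II (ATTGG and CCACG with any 1 base between them) and the UPRE (TGACGTGG). Over all 27457 genes with a window, 0.0765% held an ERSE, 0.0619% an ERSE-II and 0.681% a UPRE, and 0.816% held at least 1 of the 3. Among the 8 genes, 6 held at least 1: Creld2, Hspa5, Hsp90b1, Hyou1, Xbp1 and Herpud1. These motifs were defined in the field on promoters of genes of this kind, so that their presence is not a result of these arrays, and a match is not evidence of a bound factor. Each match is printed with 15 bases on either side, on the strand of the gene, with the fixed letters of the motif in capitals. On the reverse strand an ERSE reads with the 2 blocks exchanged.
Creld2 ERSE, reverse, chr7:121789224-121789272, + strand gene: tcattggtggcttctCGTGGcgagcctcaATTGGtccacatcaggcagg
Hspa5 ERSE, chr3:38452958-38453006, + strand gene: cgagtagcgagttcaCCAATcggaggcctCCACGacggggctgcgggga
Hsp90b1 distal ERSE, chr7:23012436-23012484, - strand gene: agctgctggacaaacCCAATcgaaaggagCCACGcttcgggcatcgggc
Hsp90b1 proximal ERSE, reverse, chr7:23012332-23012380, - strand gene: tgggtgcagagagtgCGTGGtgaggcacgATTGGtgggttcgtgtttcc
Xbp1 ERSE, chr14:84604543-84604591, + strand gene: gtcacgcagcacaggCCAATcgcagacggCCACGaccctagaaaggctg
Herpud1 ERSE-II, chr19:10614806-10614846, - strand gene: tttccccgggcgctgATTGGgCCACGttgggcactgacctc
Hyou1 distal ERSE-II, reverse, chr8:53602679-53602719, + strand gene: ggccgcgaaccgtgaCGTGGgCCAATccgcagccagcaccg
Hyou1 proximal ERSE-II, reverse, chr8:53602779-53602819, + strand gene: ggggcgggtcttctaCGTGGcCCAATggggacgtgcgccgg
Hyou1 UPRE, chr8:53602676-53602713, + strand gene: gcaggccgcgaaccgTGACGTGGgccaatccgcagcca
The UPRE of Hyou1 overlaps its distal ERSE-II. Hyou1 has 2 listed starts, and the window of the other start held 0 matches.

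Sdf2l1 and Pdia4 held 0 exact matches in their windows. The Sdf2l1 window (chr11:97376628-97376927, + strand gene) is given whole, as it belongs to the gene with the next largest difference after Creld2.
Sdf2l1 promoter: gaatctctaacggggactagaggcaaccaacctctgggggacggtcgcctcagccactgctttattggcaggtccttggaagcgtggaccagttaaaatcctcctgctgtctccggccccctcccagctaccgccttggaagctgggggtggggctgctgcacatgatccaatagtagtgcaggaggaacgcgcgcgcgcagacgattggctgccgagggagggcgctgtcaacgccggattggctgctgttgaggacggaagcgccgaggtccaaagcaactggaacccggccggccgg

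**Figure D1:**
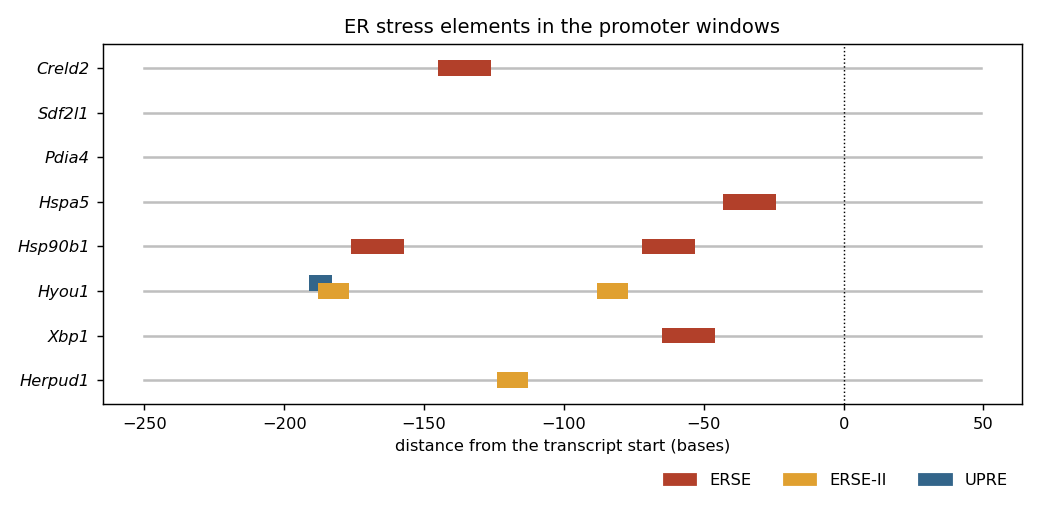
Position of the exact matches to ERSE, ERSE-II and UPRE along the promoter windows of 8 genes, in bases from the transcript start (x axis; negative is upstream), 1 gene per line. The ERSE nearest to a start is that of Hspa5, beginning 43 bases upstream, and the lines of Sdf2l1 and Pdia4 are empty.

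Creld2, Sdf2l1 and Pdia4 were higher on all 3 ICH arrays than on any sham array, and Pdia6 likewise but by little. Hspa5 and Herpud1 stood out mainly on ICH 2, and Hsp90b1 and Xbp1 differed by less than 0.05 in either direction. Hyou1 differed by -0.20, with ICH 1 and ICH 3 below every sham array. The difference was above 0 in 7 of the 9 measured genes, against 45.9% of all rows. None of the 9 passed: limma called 0 of them, and 0% of 22179 rows, at an adjusted p under 0.05. At an unadjusted p under 0.05, 3 of the 9 were higher, against 6.16% of all rows, and 0 were lower, against 8.56%. In 4 of the 9 the lowest ICH array was above the highest sham array, as in 11.0% of all rows, and in 0 the groups were apart the other way, as in 16.5%. All 9 were well above background on all 6 arrays, and 9 of 9 had a larger standard deviation (SD) among ICH than among sham arrays, as 79.7% of rows did. Values are log2 intensities relative to the 75th percentile of the same array, differences are ICH minus sham with the standard error (SE) of the fit, and n = 3 arrays in each group. Tissue is a mix of cells, so that a change in the cells present and a change in RNA per cell cannot be told apart.

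Creld2 encodes a protein of the ER lumen that is induced by ER stress and can be secreted. It stood at -0.70, 0.35 and -1.05 on ICH 1 to 3, against -1.81, -1.36 and -1.56 on sham 1 to 3. The groups did not overlap, but ICH 2 lay further above the other ICH arrays than ICH 3 lay above the highest sham array. The difference was 1.11 ± 0.37, or 2.16-fold (95% interval of the log2 difference 0.20 to 2.02, unadjusted p = 0.0242, adjusted p = 0.305 by limma). Without ICH 2 it was 0.70. The 2 spots of the probe differed by at most 0.10 on any array.

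Sdf2l1 encodes a small luminal protein that works in a complex with an ER DnaJ co-chaperone of BiP. It stood at 0.99, 1.50 and 0.70 on ICH 1 to 3, against 0.00, 0.39 and 0.58 on sham 1 to 3. ICH 3 was only just above sham 3, and the other ICH arrays were clear of it. The difference was 0.74 ± 0.26, or 1.67-fold (95% interval 0.11 to 1.37, unadjusted p = 0.0286, adjusted p = 0.310 by limma). The other Sdf2l1 probe, printed as 1 spot, stood at 0.22, 1.15 and -0.17 on ICH 1 to 3, against -0.91, -0.41 and -0.45 on sham 1 to 3, a difference of 0.99 ± 0.36. On both probes ICH 2 was highest, then ICH 1 and ICH 3, and sham 1 was lowest, while sham 2 and sham 3 changed places.

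Pdia4, also called ERp72, and Pdia6, also called P5, encode enzymes that form and reshuffle disulfide bonds in folding proteins. Pdia4 stood at -0.11, 0.46 and -0.12 on ICH 1 to 3, against -0.62, -0.45 and -0.29 on sham 1 to 3. Every ICH array was above every sham array, by a difference of 0.53 ± 0.21, or 1.44-fold (95% interval 0.02 to 1.03, unadjusted p = 0.0424, adjusted p = 0.334 by limma). Without ICH 2 the Pdia4 difference was 0.34. Pdia6 stood at 1.62, 1.79 and 1.55 on ICH 1 to 3, against 1.47, 1.52 and 1.50 on sham 1 to 3. The Pdia6 groups did not overlap either, yet the difference was 0.16 ± 0.13 and its 95% interval ran from -0.15 to 0.46 (adjusted p = 0.553 by limma). Without ICH 2 the Pdia6 difference was 0.085, and it was 0.31 with quantile normalization.

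Hspa5 encodes BiP, the Hsp70 of the ER and the chaperone that holds the stress sensors inactive. It stood at 1.56, 2.60 and 1.84 on ICH 1 to 3, against 1.67, 1.68 and 1.67 on sham 1 to 3. The sham arrays were almost equal, with an SD of 0.0051, and the ICH arrays lay on both sides of them, with an SD of 0.54. ICH 2 was 0.90 above the mean of the other ICH arrays. The difference was 0.32 ± 0.27 (95% interval -0.34 to 0.99, adjusted p = 0.567 by limma), and without ICH 2 it was 0.02.

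Hsp90b1 encodes GRP94, the Hsp90 of the ER, which folds integrins and Toll-like receptors among its clients. It stood at 2.35, 2.42 and 2.36 on ICH 1 to 3, against 2.36, 2.31 and 2.36 on sham 1 to 3. The groups overlapped within a narrow band, and the difference was 0.03 ± 0.11. Its 95% interval of -0.25 to 0.31 leaves room for a change in either direction (adjusted p = 0.900 by limma). The Hsp90b1 difference depended on the scaling: it was -0.04 with each array centred on its median, 0.24 with quantile normalization and 0.46 with spike-in centring, where the median of all rows was 0.39.

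Hyou1 encodes GRP170, a large relative of Hsp70 that releases nucleotide from BiP. It stood at -1.04, -0.52 and -0.73 on ICH 1 to 3, against -0.48, -0.64 and -0.56 on sham 1 to 3. ICH 1 and ICH 3 were below every sham array and ICH 2 lay among them. The difference was -0.20 ± 0.17 (95% interval -0.61 to 0.22, adjusted p = 0.572 by limma), and without ICH 1 it was -0.06. Hyou1 and Xbp1 were the 2 of the 9 genes with a negative difference, and centring on spike-in probes turned that of Hyou1 to 0.23.

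Xbp1 encodes the transcription factor that IRE1 activates by splicing, and the array signal is not split into the spliced and unspliced forms. It stood at 1.12, 1.26 and 1.34 on ICH 1 to 3, against 1.27, 1.23 and 1.35 on sham 1 to 3. The groups overlapped, and the difference was -0.04 ± 0.13 (95% interval -0.35 to 0.26, adjusted p = 0.869 by limma). Quantile normalization turned it to 0.10 and spike-in centring to 0.38. Herpud1 encodes a protein of the ER membrane that helps gather the ERAD machinery. It stood at 0.66, 1.19 and 0.56 on ICH 1 to 3, against 0.68, 0.73 and 0.60 on sham 1 to 3. ICH 2 alone lay above the sham arrays, and the difference was 0.14 ± 0.20 (adjusted p = 0.739 by limma), or -0.06 without ICH 2.

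**Figure D2:**
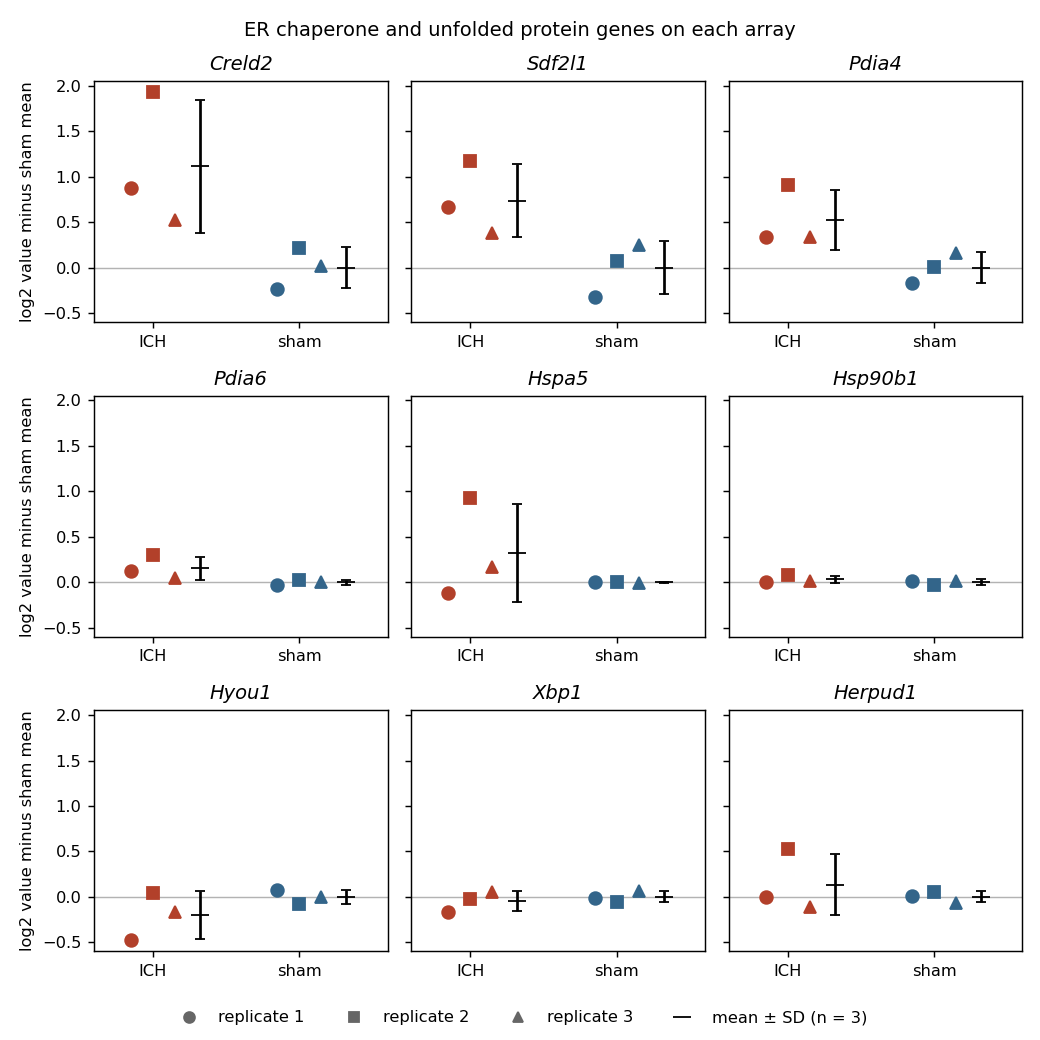
Log2 value of each gene on each array minus the mean of the sham arrays (y axis), ICH left and sham right, with the mean ± SD of 3 arrays beside each group. Creld2, Sdf2l1, Pdia4 and Pdia6 show no overlap between the groups, and the ICH 2 square is the highest point in 7 of the 9 panels.

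ICH 2 was the highest of the 6 arrays for 7 of the 9 genes, where it was the highest for 27.2% of all rows. The exceptions were Hyou1 and Xbp1. Among the ICH arrays alone it was the highest for 8 of the 9, against 35.8% of rows. In the lists described below, ICH 2 was the highest of the 6 arrays for 13 of 22 further ER chaperones and foldases. It was so for 7 of 11 cytosolic heat shock genes, 6 of 11 ERAD genes and 10 of 19 translocation and transport genes. In the PERK and ATF4 arm this held for 5 of 10, and among sensors and regulators for 1 of 10. These counts were made after the values were seen, and the 9 genes share the same 6 RNA samples. The median of the 9 genes, relative to their sham means, was 0.00, 0.52 and 0.05 on ICH 1 to 3, against -0.01, 0.01 and 0.02 on sham 1 to 3. Their median difference was 0.16, where that of all rows was -0.04. Without ICH 2 the median was 0.02, and without ICH 3 it was 0.26. The ICH arrays also lay further apart over all genes, with correlations of 0.949 to 0.980 among them against 0.985 to 0.991 among sham arrays.

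**Figure D3:**
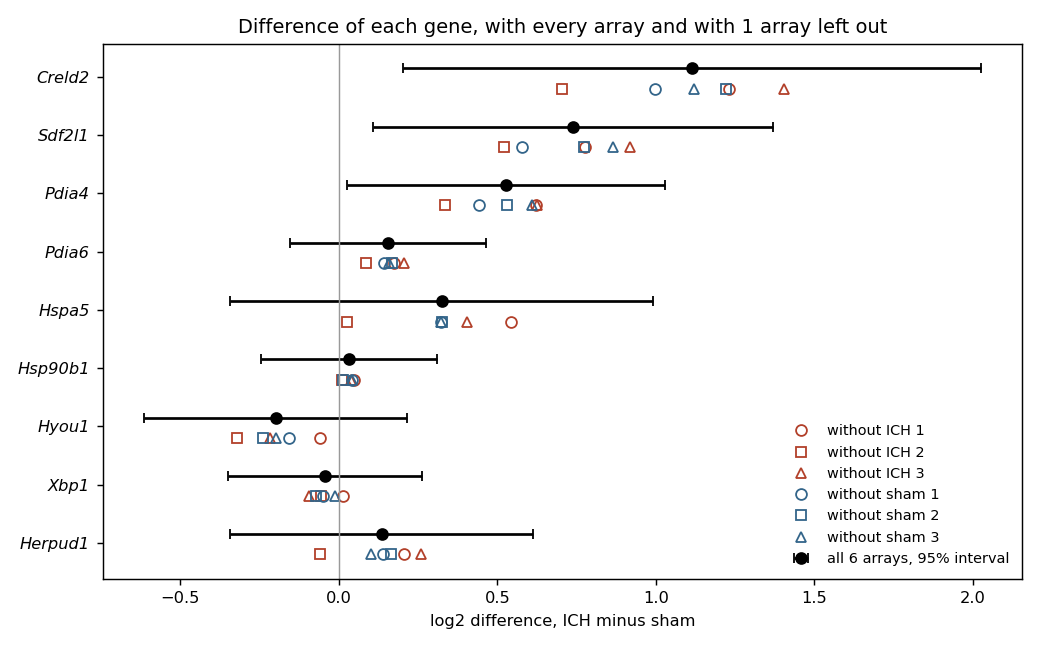
Log2 difference, ICH minus sham (x axis), of each gene over all 6 arrays with its 95% interval (black), and with 1 array left out (open symbols). Leaving out ICH 2 gives the lowest value for Creld2, Sdf2l1, Pdia4, Pdia6, Hspa5, Hsp90b1, Hyou1 and Herpud1, and the intervals of Creld2, Sdf2l1 and Pdia4 lie above 0.

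The other genes of the response were read from lists set by function, also with earlier results of these data known. Among 22 further ER chaperones and foldases, 18 had a positive difference, against 45.9% of all rows, and 4 a negative one. Their median was 0.21, and 0 passed. Of the 22, 3 positive and 1 negative had an unadjusted p under 0.05, against 6.16% and 8.56% of all rows. Cdnf, the paralog of Manf and a neurotrophic protein of the ER, stood at -3.97, -4.16 and -3.72 on ICH 1 to 3, against -5.64, -5.30 and -5.17 on sham 1 to 3. ICH 2 was the lowest ICH array here, where it was the highest for 8 of the 9 measured genes above, and the gap between the groups was wider than the spread within either. The difference of Cdnf was 1.42 ± 0.19, or 2.68-fold (unadjusted p = 0.000252, adjusted p = 0.172 by limma). With 1 array left out it was 1.29 to 1.52, and with normexp background correction it was 1.02. Its adjusted p was 0.0420 with spike-in centring, which moved the median of all rows to 0.39 from -0.04. Calr, the lectin chaperone calreticulin that also buffers ER calcium, stood at 0.24, 0.39 and 0.27 on ICH 1 to 3, against -0.38, -0.16 and -0.12 on sham 1 to 3. The Calr groups did not overlap, with a difference of 0.52 ± 0.13 (adjusted p = 0.301 by limma). Fkbp2, a prolyl isomerase of the ER, went the other way at -0.40 ± 0.14 (adjusted p = 0.308 by limma), or 0.02 with spike-in centring.

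The sensor genes went both ways. Of 10 sensors and regulators, 5 were higher and 5 lower, with a median difference of 0.11. Of the 10, 1 was higher at an unadjusted p under 0.05, against 6.16% of all rows. That gene was Atf6b, a relative of ATF6, at 0.42 ± 0.14 (adjusted p = 0.305 by limma), with the groups apart. Ern1, which encodes IRE1, differed by 0.25 ± 0.15, and Rtcb, the ligase that joins the cut Xbp1 RNA, by -0.24 ± 0.13, or 0.19 with spike-in centring. Of 11 ERAD genes, 10 were higher, against 45.9% of all rows, and 1 lower. Their median difference was 0.21, and 3 were higher at an unadjusted p under 0.05. These were the ubiquitin-conjugating enzyme gene Ube2j1 (0.51 ± 0.14), the adaptor gene Sel1l (0.67 ± 0.21) and Derl3, of the Derlin channel family (0.43 ± 0.17). Another Sel1l probe gave 0.41 and another Derl3 probe 0.96. In 6 of the 11 ERAD genes the lowest ICH array was above the highest sham array, where this held for 11.0% of all rows, and the 3 at an unadjusted p under 0.05 stand beside 6.16% of all rows.

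Among 19 genes of ER translocation and secretory transport, 12 were higher, against 45.9% of all rows, and 7 lower. Their median difference was 0.07, with 0 at an unadjusted p under 0.05. The smallest p-values in that list belonged to the translocon genes Ssr2 (0.30 ± 0.13) and Sec61a1 (0.37 ± 0.18) and to Kdelr2, a receptor that returns ER proteins from the Golgi (0.42 ± 0.20). In the PERK and ATF4 arm 7 of 10 were higher, against 45.9% of all rows, and 3 lower, with a median difference of 0.31. At an unadjusted p under 0.05, 3 were higher, against 6.16% of all rows, and 0 lower. The 3 at that p were Cebpb (0.81 ± 0.23), Sesn2 (0.45 ± 0.14) and Asns (0.42 ± 0.17). They encode a transcription factor, a stress-induced mTORC1 inhibitor and asparagine synthetase. Atf4 itself was lower, at -0.23 ± 0.13, as were Ddit4 (-0.25 ± 0.14) and Ddit3 (-0.16 ± 0.18). In 3 genes of the arm all ICH arrays were above all sham arrays, and in 2, Atf4 and Ddit4, all were below. Over all rows these shares were 11.0% and 16.5%. The list of cytosolic heat shock proteins, which also holds the mitochondrial Hspd1 (0.09 ± 0.20) and Hspe1 (-0.04 ± 0.16), had 5 higher and 6 lower of 11. Its median of -0.04 was the value of Hspe1. The small heat shock protein gene Hspb1 stood at 2.13, 2.70 and -0.20 on ICH 1 to 3, against -0.28, -0.20 and -0.07 on sham 1 to 3 (adjusted p = 0.346 by limma, or 0.0463 without ICH 3). ICH 3 was within the sham range for Hspb1, whereas for Creld2 it was above every sham array. Hsph1 and Hspa4, of the Hsp110 family, differed by 0.34 ± 0.16 and -0.43 ± 0.22. With all 6 arrays and the 75th percentile, 0 genes of these 6 lists passed at an adjusted p under 0.05, and no list was tested as a group.

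**Figure D4:**
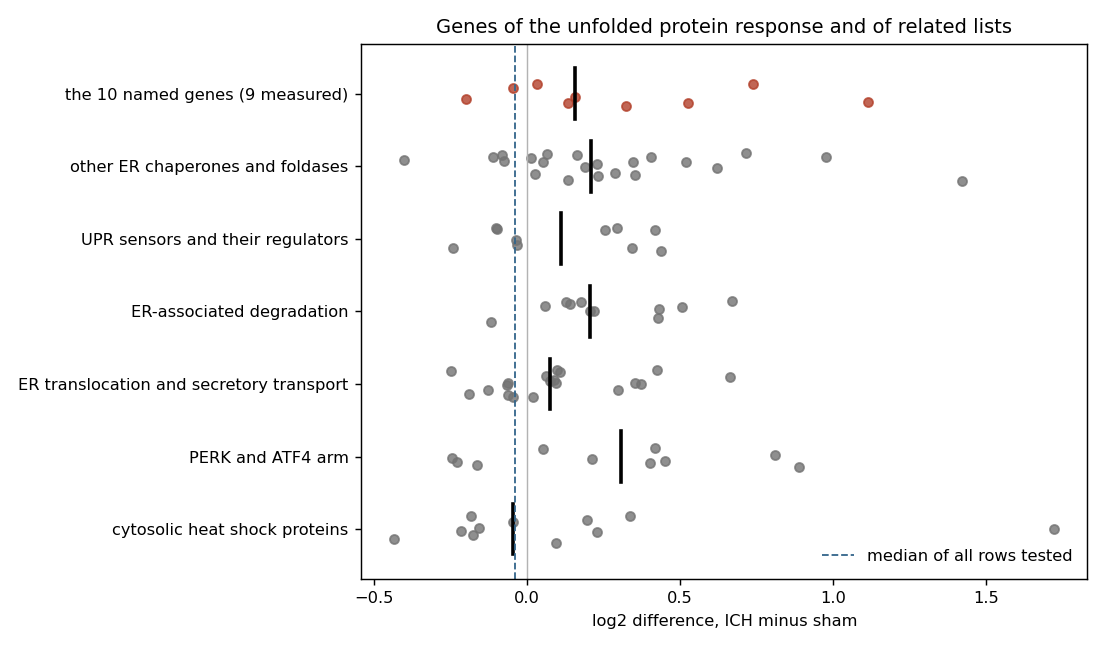
Log2 difference, ICH minus sham (x axis), of each measured gene (points) in the 10 named genes and in 6 further lists, with the list's median (black bar) and the median of all rows tested (dashed line, -0.04). List medians run from -0.04 for cytosolic heat shock proteins to 0.31 for the PERK and ATF4 arm. The list of cytosolic heat shock proteins includes the mitochondrial Hspd1 and Hspe1.

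The genes most like the mean of the 9 in pattern were sought among 5168 named genes well above background on all 6 arrays with an SD of at least 0.3. The 5 with the highest Pearson correlation over the 6 arrays were Me2 (0.999), Cdc42se2 (0.997), Ifngr2 (0.996), Ift70a2 (0.994) and Fgd6 (0.994). Me2 encodes a mitochondrial malic enzyme and Ifngr2 a chain of the interferon gamma receptor. In all 5 ICH 2 was the highest array, as in the mean of the 9 genes, where it stood at 0.65 against 0.14 on ICH 1 and on ICH 3. The points of these correlations share 6 RNA samples, and 1 array sets most of the range.

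Markers of the cells present also differed between the arrays. Of 8 microglia and myeloid markers 5 were higher and 3 lower, with medians relative to sham of 0.04, 0.61 and -0.40 on ICH 1 to 3, against 0.00 to 0.04 on sham arrays. Oligodendrocyte markers, 0 higher and 7 lower of 7, had medians of 0.17, -0.79 and -0.03 on ICH 1 to 3, against -0.19 to 0.10 on sham arrays. ICH 2 was the array with the highest ER gene median, the highest myeloid median and the lowest oligodendrocyte median. The myeloid markers were split there. Aif1, P2ry12 and Tmem119, the 3 lower ones, were at their lowest of the 6 arrays on ICH 2. Cd14, Cd68, Cx3cr1 and Itgam were at their highest on it. Plasma cells, which are rich in ER, had 4 of 5 measured markers higher, with medians of 0.14, 0.39 and 0.18 on ICH 1 to 3, against -0.43 to 0.24 on sham arrays. Derl3 is in that list too, and the plasma cell factor gene Irf4 was well above background on 0 of 6 arrays. Of 8 neutrophil markers 4 were measured, 2 higher and 2 lower. Their medians were 1.22, 1.43 and -0.16 on ICH 1 to 3, against -0.71 to 0.74 on sham arrays. S100a8 and S100a9 differed by 2.06 and 1.86, and the granule genes Camp and Ngp by -0.0055 and -0.75. Elane and Mmp8 were well above background on 0 of 6 arrays.

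Neuron markers in general had 3 higher and 5 lower of 8, with list medians from -0.19 to 0.01 on ICH arrays and -0.05 to 0.05 on sham arrays. Striatal projection neuron markers were lower in 8 of 8, with medians from -1.48 to -0.84 on ICH arrays and -0.85 to 0.45 on sham arrays. Cortical projection neuron markers were higher in 5 of 6, with medians from 0.80 to 1.30 on ICH arrays and -0.46 to 0.39 on sham arrays. Astrocyte markers had 2 higher and 5 lower of 7, with medians of -0.32, 0.33 and -0.32 on ICH 1 to 3, against -0.11 to 0.06 on sham arrays. Endothelial markers had 1 higher and 6 lower of 7, choroid plexus markers 5 higher and 2 lower of 7, and erythroid markers 4 higher and 1 lower of 5. The part of these cell markers in the ER gene values was not tested.

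**Figure D5:**
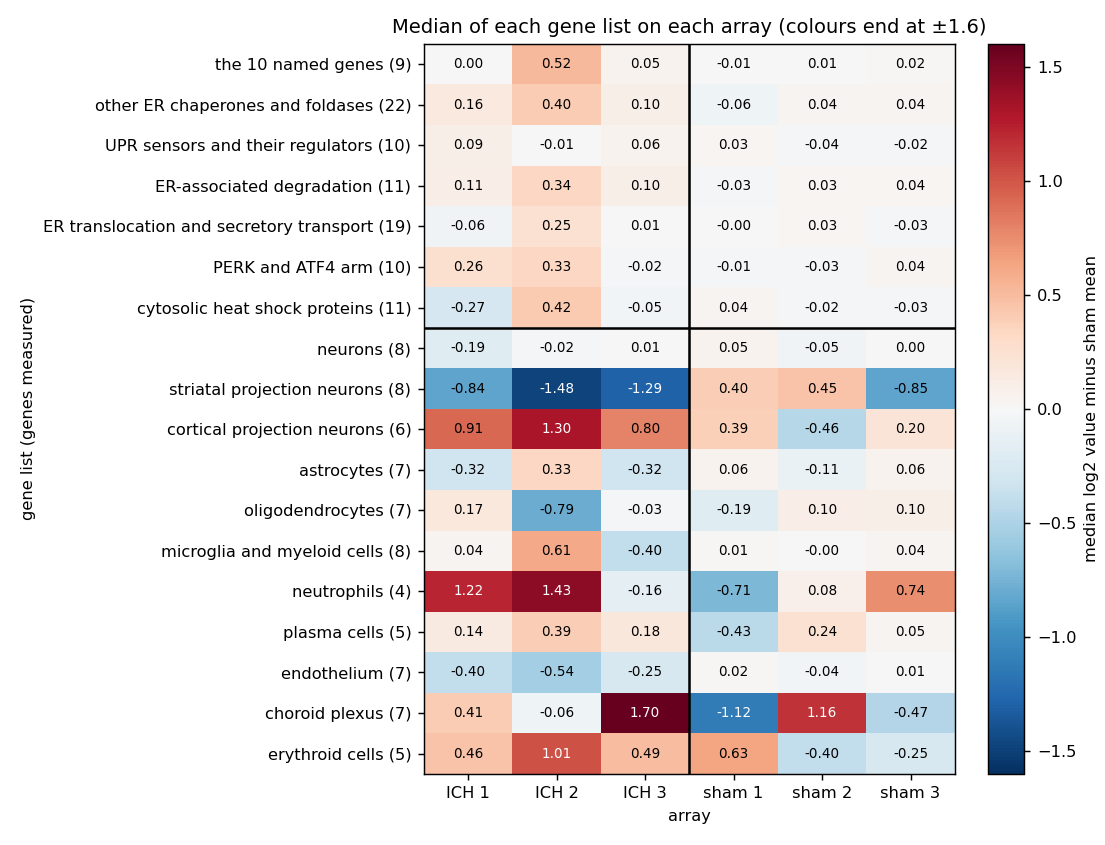
Median over each gene list of the log2 value minus the sham mean (colour and printed number), for 7 lists of stress and folding genes above the line and 11 lists of cell type markers below it, ICH arrays left and sham arrays right. In the first line ICH 2 stands at 0.52 and the other 5 arrays between -0.01 and 0.05.

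All 6 arrays were on 1 slide, with ICH 1 and the sham arrays in the first of its rows and ICH 2 and ICH 3 in the next. Within the first row, where ICH 1 is the lone ICH array and is assumed to vary like the sham arrays, Creld2 differed by 0.88, Sdf2l1 by 0.66, Pdia4 by 0.34 and Pdia6 by 0.12. Hspa5 differed by -0.12 there, Herpud1 by 0.00, Hyou1 by -0.48 and Xbp1 by -0.16. The next row held no sham array, so that for ICH 2 and ICH 3 a difference from sham cannot be told apart from the row. ICH 2 and ICH 3 share that row, and the medians of the 9 genes were 0.52 on ICH 2 and 0.05 on ICH 3. The number of arrays limits the precision of every value above.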

How the data were processed

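Rat brain RNA was measured on 6 Agilent single-channel arrays, 3 ICH and 3 sham. Per the file headers, the deposited intensity values were read with Feature Extraction 11.5.1.1 and background-subtracted and detrended within each array; the submitters' processing notes name version 10.7. The deposited table's log2 values equal the log2 intensity averaged over a probe's spots minus a constant per array, within 0.001 for 98.5% to 99.3% of probes, which was worked out from the values. Per the file headers the flags of each spot mark spots that are well above background, saturated (0 spots) or not uniform (1 to 9 per array).

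Control spots were dropped and non-uniform spots were treated as missing. From the log2 intensity each array's own 75th percentile (signal 5726 to 6676) was subtracted, and spots of a probe were averaged. Of the spots, 81.8% to 85.4% per array were well above background. A probe was kept if at least 0.5 of its spots were well above background on at least 3 of 6 arrays. Of 30367 probes, 18355 had 1 symbol in the RefSeq table of GRCr8, 0 several and 12012 none. For each symbol the brightest probe was used, giving 22179 rows. limma 3.58.1 in R 4.3.3 (lmFit, eBayes, no covariate, 6.12 degrees of freedom) was run on all rows, with Benjamini-Hochberg adjustment over all of them. The fit was tested on simulated data. Tables and figures used Python 3.11.15, numpy 2.4.6, pandas 2.3.3 and matplotlib 3.10.9.

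The 10 genes and the further lists were chosen with earlier results of these data known. All 10 genes are named; of each further list, the 3 with the smallest p; and the 5 most like the 9 genes' mean. Other genes named were chosen after their values were seen. Alternatives were normexp background correction (offset 50, on median signals), quantile normalization, median centring, the deposited log2 values, both other filters on dim probes, averaging the probes of each gene, eBayes with trend and robust settings, a block for the replicate number or the slide row, values within the first slide row, and leaving out each array. Spike-in centring was added with the data known.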

Additional observations from a re-analysis of the deposited data

How the results depend on the processing

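Of the 9 genes, 0 passed an adjusted p of 0.05 under any of the 18 alternatives run. The filters on dim probes, the eBayes settings and the replicate block cannot move a gene's difference here, and the slide row block and the first row alone give 1 value by construction. Over the alternatives Creld2, Sdf2l1, Pdia4 and Pdia6 ranged from 0.70 to 1.54, 0.52 to 1.16, 0.34 to 0.95 and 0.08 to 0.58. Other differences changed sign, and the cause was not tested: Hspa5 was -0.12 and Herpud1 0.00 (-0.0041) with the slide row as a block and within the first row, and Herpud1 was -0.058 without ICH 2, with a range of -0.058 to 0.26 over the arrays left out. Hsp90b1 was -0.043 with median centring. Xbp1 was 0.10 with quantile normalization, 0.38 with spike-in centring and 0.014 without ICH 1, with a range of -0.094 to 0.014 over the arrays left out. With spike-in centring Hyou1 was 0.23, Fkbp2 0.024 and Rtcb 0.19. The median of the 9 genes was 0.02 to 0.26 with 1 array left out, 0.08 with median centring, 0.31 with quantile normalization, 0.00 with the slide row as a block, and 0.58 with spike-in centring, where the median of all rows was 0.39. Over all rows, limma called 3 with normexp background correction, 2 with the filter on all 6 arrays, 3 with an intensity trend and robust variance, 41 with spike-in centring and 0 to 36 with 1 array left out, of which 36 came without ICH 3 and 8 without ICH 2. Those 41 calls with spike-in centring included Cdnf, and Hspb1 passed without ICH 3 (2.59, adjusted p = 0.0463 by limma).

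The count of 3 of the 9 genes higher at an unadjusted p under 0.05 was 0 without sham 1, 1 without sham 2, sham 3 or ICH 2, 2 without ICH 1 and 3 without ICH 3. It was 2 with median centring, 0 with the slide row as a block and 4 with spike-in centring. Over all 22179 rows, 1366 were higher at that p in the main fit. With sham 1, sham 2 or sham 3 left out, these were 683, 769 and 786 rows. Without ICH 1, ICH 2 or ICH 3 they were 996, 1884 and 2135 rows. Median centring gave 839 such rows, the slide row block 1163 and spike-in centring 5857. In the other direction Hyou1 was -0.48 with the slide row as a block and within the first row. Its unadjusted p with that block was 0.0479 by limma. In the same fit 1536 of 22179 rows were lower at an unadjusted p under 0.05. Same-numbered arrays showed little shared deviation from their group means (correlations -0.19, -0.01 and 0.07 for numbers 1 to 3). With 3 arrays in each group this cannot show whether the numbers pair the samples. With the replicate number as a block, 2 of the 9 genes were higher at an unadjusted p under 0.05. So were 918 of 22179 rows. At an adjusted p under 0.05, 0 of the 9 passed and 0 rows were called. The deposited log2 values moved the differences of the 9 genes by 0.01.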
